A study of Mus musculus with 4 samples.

Results

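The secreted factors that build and maintain blood and lymphatic vessels were followed in epididymal white adipose tissue of mice with and without Nck2. The set was 10 genes of 39179 in the deposited table, chosen by symbol as angiogenic factors of adipose tissue expansion: Vegfa, Vegfb, Vegfc, Figf (now called Vegfd) and Pgf of the VEGF family, Angpt1 and Angpt2 of the angiopoietins, Angptl2 and Angptl4 of the angiopoietin-like proteins, and Apln, which encodes apelin. All 10 reached the minimum mean of 10 normalized read counts and were among 16710 genes tested. Polyadenylated RNA came from 4 libraries, 2 with the genotype label WT and 2 titled Nck2 KO (genotype label Nck2 mutant), all from mice of a mixed genetic background. Nck2 encodes an adaptor that links tyrosine-phosphorylated receptors to the actin cytoskeleton. Age, diet, the altered part of the gene and whether replicates were separate animals are not stated in the labels, so p-values measure only the spread between these libraries, which may be technical. WT and KO stand for the labels throughout.

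The libraries held between 31831904 and 37980391 reads assigned to genes. Nck2 itself had 1279 and 1667 normalized counts in WT replicates 1 and 2 and 1076 and 947 in KO replicates 1 and 2, with an adjusted p of 0.0509 from limma and 0.0214 from DESeq2, against 0.0208 in the authors' deposited table, and a total over all exons cannot check the genotype. The 20 mature adipocyte markers took 3.53% and 2.42% of reads in WT replicates 1 and 2 and 7.58% and 8.03% in KO replicates 1 and 2. The WT libraries also carried transcripts of the male tract and of smooth muscle. The 20 epididymis and male tract markers took 1.25% and 1.09% of WT reads against 0.000345% and 0.000292% of KO reads. Crisp1 held 343811 and 334537 of their 405916 and 344122 normalized counts in WT replicates 1 and 2. Others differed between these 2 libraries, such as Svs2 (12085 and 63.3) and Gpx5 (12.2 and 207), while Crisp4 (450 and 400) was similar. Svs2 and Gpx5 were picked for mention after their values were seen. The 16 pericyte and smooth muscle markers took 1.73% and 2.32% of WT reads against 0.154% and 0.169% of KO reads. The 20 endothelial markers, the cells these factors act on, took 0.154% and 0.134% of WT reads and 0.209% and 0.22% of KO reads. The part of these shifts in the results below was not tested. In tissue RNA of this kind, fewer cells of a type and less RNA per cell cannot be told apart.

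VEGF ligands bind receptor tyrosine kinases of the endothelium. VEGF-A acts mainly through KDR, VEGF-B and placental growth factor bind FLT1, and VEGF-C and VEGF-D act through FLT4 on lymphatic vessels. Angiopoietin 1 activates the TEK receptor and steadies mature vessels, while angiopoietin 2 can oppose it and loosens vessels for sprouting. ANGPTL4, a target of PPAR transcription factors, inhibits lipoprotein lipase, and adipocytes are a main source of VEGF-A and ANGPTL4 in fat.

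Of the 10 factors, 5 rose in KO, 3 fell and 2 did not pass. Angptl4, Angptl2, Apln, Vegfa and Vegfb were higher, with log2 fold changes from 1.14 to 2.05. Pgf and Angpt1 fell by 1.98 and 1.93 on the log2 scale, and Figf by 0.28. Fold changes are KO minus WT on log2(normalized count + 1) with their standard error (SE), and p-values come from limma, adjusted by Benjamini-Hochberg across the 16710 genes. Of all genes tested, 22.4% were called higher and 24.4% lower, and 46.7% in either direction. The median log2 fold change was 0.94 over the 10 factors and -0.01 over all genes. In 6 of the 10 both KO libraries lay above both WT libraries and in 3 both lay below, and over all genes these shares were 38.9% and 40.6%, or 79.5% in either direction. With edgeR on the recovered reads 4 were higher and 3 lower, where 21% and 24.4% of all genes were called, and with DESeq2 6 and 2, where 18.9% and 21.4% were. The calls depended on both WT libraries: 1 factor was higher and 1 lower without WT replicate 1, and 1 and 0 without WT replicate 2. In those 2 fits 1205 and 524 genes of the whole table were called higher and 1645 and 1061 lower, against 3735 and 4074 with all libraries.

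**Figure D1:**
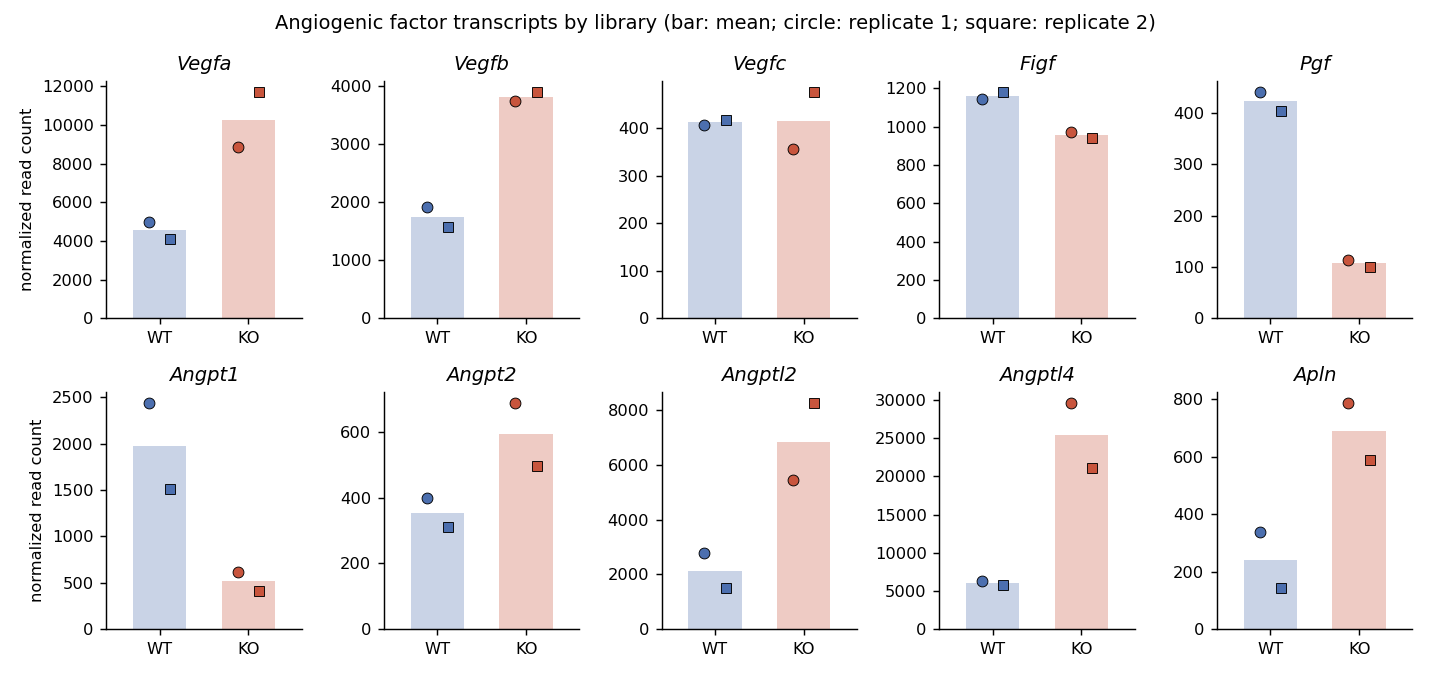
Normalized read count (y axis, from 0) of each of the 10 factors in the 2 WT and 2 KO libraries. Bars are means, circles replicate 1 and squares replicate 2. For 9 genes the KO points lie wholly above or wholly below the WT points, and for Vegfc they overlap.

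Vegfa, the principal signal for new vessels and a transcript raised by hypoxia, was at 5001 and 4109 normalized counts in WT replicates 1 and 2 and at 8867 and 11683 in KO replicates 1 and 2. Both KO libraries were higher than both WT libraries, and the log2 fold change was 1.17 (SE 0.18, adjusted p = 0.0088). Vegfb, a ligand of FLT1 linked to vessel survival and fatty acid handling, was at 1907 and 1569 in WT versus 3733 and 3884 in KO. It had nearly the same log2 fold change as Vegfa, 1.14 (SE 0.11, adjusted p = 0.0031), and the KO libraries again lay above the WT libraries. The call on Vegfb held in each of the 4 fits that left out 1 library, with log2 fold changes from 1.00 to 1.28. For Vegfa it was lost without WT replicate 1 (1.31, adjusted p = 0.0745) and without WT replicate 2 (1.03, adjusted p = 0.113).

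Pgf, which encodes placental growth factor, moved the other way from the FLT1 ligand Vegfb. Its counts were 440.2 and 405 in WT and 114 and 99.3 in KO, so both KO libraries lay far below both WT libraries. These values rest on 432, 435, 122 and 89 reads. The log2 fold change was -1.98 (SE 0.14, adjusted p = 0.0017), and the adjusted p was 0.0556 (log2 fold change -2.04) without WT replicate 2. Figf, the lymphatic ligand VEGF-D, was at 1144 and 1179.7 in WT versus 973 and 941 in KO. The groups did not overlap, but the difference was small, at -0.28 (SE 0.068, adjusted p = 0.031). The Figf call was lost in each fit that left out 1 library (-0.26 to -0.30, adjusted p up to 0.141) and with DESeq2 on the recovered reads (adjusted p = 0.0866), and the authors' deposited table gave an adjusted p of 0.0816. Vegfc, the other lymphatic ligand, was at 408 and 418 in WT versus 355 and 475 in KO. The KO libraries lay on either side of the WT libraries, and the log2 fold change of -0.01 (SE 0.17, adjusted p = 0.978) did not pass.

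The make-up of the VEGF family therefore differed between the genotypes. Expressed per kilobase of annotated exon, so that genes of different length can be compared, Vegfa and Vegfb together were 74.8% and 70.8% of the summed level of the 5 VEGF transcripts in WT replicates 1 and 2 and 88.2% and 89.3% in KO replicates 1 and 2. Pgf was 4.82% and 5.1% of that sum in WT and 0.79% and 0.593% in KO. Figf was 15.1% and 17.9% in WT and 8.1% and 6.78% in KO. The sum itself was 3149 and 2736 normalized counts per kilobase in WT and 4983 and 5765 in KO. Figf alone was at 475 and 490 per kilobase in WT and 404 and 391 in KO, so its share fell mostly because the sum rose. The ratio of Vegfa to Pgf per kilobase was 7.7 and 6.88 in WT and 52.6 and 79.7 in KO. The groups did not overlap, and the ratio was not tested. A two-sided exact permutation test cannot give less than p = 0.333 with 2 libraries against 2.

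**Figure D2:**
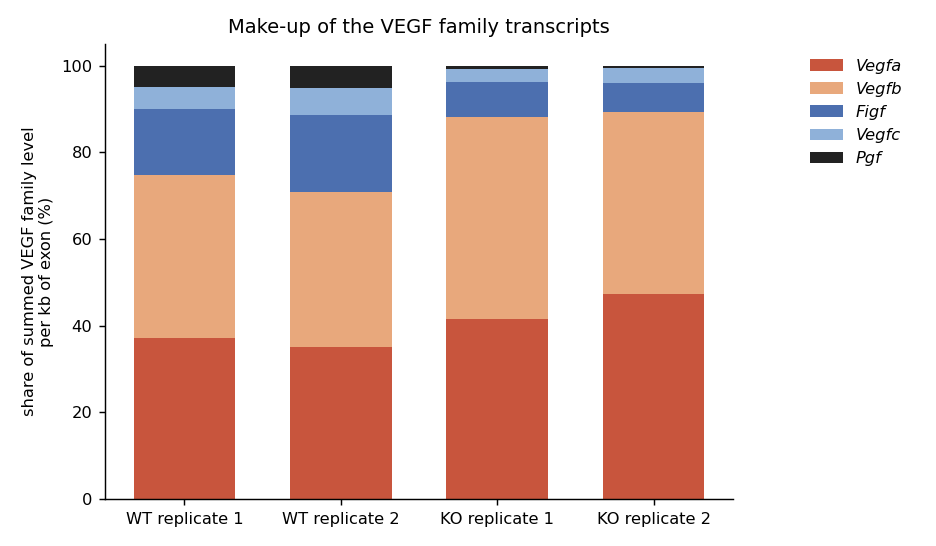
Share (%, y axis) of each VEGF family gene in the summed level per kilobase of exon, 1 stacked bar for each library. Vegfa and Vegfb fill 70.8% and 74.8% of the WT bars and 88.2% and 89.3% of the KO bars, and Pgf, the black segment on top, shrinks to under 1% in KO.

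The stretches before the transcription start are shown for Vegfa and Vegfb, which rose by like amounts, for Apln, which rose, and for Figf, which fell, so that the letters counted in the next paragraph can be seen. They are RefSeq sequences of GRCm38.p6, read 5′ to 3′ on the gene's strand and ending at the RefSeq start, or for Figf where an annotated exon begins. Capitals mark GC boxes, the letters GGGCGG or their reverse complement CCGCCC. Vegfa is on the minus strand at chr17:46032378-46032627, Vegfb on the minus strand at chr19:6987652-6987901, Apln on the minus strand at chrX:48034854-48035103 and Figf on the plus strand at chrX:164373272-164373377.
Vegfa: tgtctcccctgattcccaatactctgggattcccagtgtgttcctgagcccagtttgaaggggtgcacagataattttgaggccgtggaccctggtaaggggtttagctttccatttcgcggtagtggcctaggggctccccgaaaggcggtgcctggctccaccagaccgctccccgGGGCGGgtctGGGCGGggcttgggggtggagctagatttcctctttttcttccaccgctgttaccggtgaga
Vegfb: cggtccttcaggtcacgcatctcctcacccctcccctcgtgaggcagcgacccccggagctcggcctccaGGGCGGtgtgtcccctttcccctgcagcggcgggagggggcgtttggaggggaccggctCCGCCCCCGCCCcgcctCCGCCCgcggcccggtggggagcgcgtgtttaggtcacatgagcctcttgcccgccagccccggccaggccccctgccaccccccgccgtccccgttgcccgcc
Apln: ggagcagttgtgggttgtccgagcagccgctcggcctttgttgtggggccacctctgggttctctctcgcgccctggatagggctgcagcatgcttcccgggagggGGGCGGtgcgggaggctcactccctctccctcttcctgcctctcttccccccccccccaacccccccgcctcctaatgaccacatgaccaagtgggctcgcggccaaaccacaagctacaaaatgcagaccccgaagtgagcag
Figf: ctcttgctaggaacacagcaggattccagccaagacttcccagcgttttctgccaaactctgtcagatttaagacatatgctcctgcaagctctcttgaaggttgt

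GC boxes occurred 2 times before the upstream Vegfa start and 1 time before its downstream start. They occurred 4 times before Vegfb, 1 time before Apln and 0 times in the 250 bases before Figf. Vegfc, which did not pass, had 2, as did Angptl2, which rose, and the 2 windows of Pgf, which fell, had 2 and 0. Neither the count nor, as the values that follow show, the GC content followed the direction of change. Of 32851 windows of 250 bases before a RefSeq start, 32.7% held at least 1. GC content over 250 bases was 59.2% and 59.6% for the 2 Vegfa windows, 76.4% for Vegfb and 65.2% for Apln. It was 66.8% for Angptl2 and 71.6% for Vegfc, against 42.4% for Figf and a median of 52.4% over all windows (quartiles 45.2% and 61.2%). The windows of Pgf, which fell, lie inside the annotated Pgf gene and had 68.4% and 66.4%. In windows that run from 250 bases before to 50 after the start, the core of the hypoxia response element, ACGTG on either strand, occurred in 1 of the 9 windows of these 7 genes, the downstream start of Vegfa, and in 19.6% of all windows. The PPAR-RXR direct repeat known as DR1, on either strand and with up to 2 mismatches, occurred in 0 of the 9 and in 3.86% of all. Neither search reaches elements farther from the start. Angpt1, Angpt2 and Angptl4 were not matched.

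Of the angiopoietins in the set, Angpt1 fell, while Angpt2 was higher in both KO libraries but did not pass. Angpt1, the TEK agonist made largely by mural and stromal cells, was at 2438 and 1508 normalized counts in WT versus 613 and 414 in KO. The highest KO library was below the lowest WT library, and the log2 fold change was -1.93 (SE 0.31, adjusted p = 0.0104). It was -1.58 without WT replicate 1 (adjusted p = 0.0889) and -2.27 without WT replicate 2 (adjusted p = 0.0724), so neither passed. In the same libraries 10 of 16 pericyte and smooth muscle markers fell and 1 rose, and the large falls were those of contractile genes such as Cnn1 (-9.12) and Myh11 (-6.13). The pericyte markers of that list, set apart after their values were seen, were at 0.52 (Rgs5), 0.35 (Notch3), 0.11 (Abcc9) and -0.23 (Cspg4), which did not pass, and at 0.33 (Pdgfrb) and -0.37 (Kcnj8), which did. The part of either group in the Angpt1 result was not tested. Of the exon bases of Angpt1, 14.2% also belong to an antisense transcript, Gm17473, which had at most 6.11 normalized counts in any library. Angpt2, the context-dependent TEK antagonist released by endothelium, was at 399 and 309 in WT versus 688 and 497 in KO. The groups did not overlap, but the log2 fold change of 0.73 (SE 0.22, adjusted p = 0.0537) did not pass. It was 0.50 without KO replicate 1 and 0.97 without KO replicate 2. Angpt2 passed with DESeq2 (0.74, adjusted p = 0.0205), and the authors' deposited table gave an adjusted p of 0.0192.

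Set against each other per kilobase of exon, Angpt2 was at 0.231 and 0.289 of the Angpt1 level in WT replicates 1 and 2 and at 1.58 and 1.69 of it in KO replicates 1 and 2. Angpt1 was thus the more abundant angiopoietin in both WT libraries and Angpt2 in both KO libraries. The log2 ratio of Angpt2 to Angpt1 was higher in KO by 2.66, which is a 6.33-fold shift. This ratio is free of library scaling and was not tested either, as the same limit of p = 0.333 for an exact permutation test holds.

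With all 4 libraries Angptl4 had the greatest rise of the 10, but Angptl2 exceeded it without KO replicate 1 (2.02 against 1.8), and Apln (2.26) and Angptl2 (2.17) without WT replicate 1. Angptl4 was at 6340.4 and 5778 normalized counts in WT versus 29626 and 21150.4 in KO, a log2 fold change of 2.05 (SE 0.19, adjusted p = 0.0026). The KO libraries stood far above the WT libraries and differed more from each other than the WT libraries did. The call was lost when WT replicate 1 (2.12, adjusted p = 0.0574) or WT replicate 2 (1.98, adjusted p = 0.0726) was left out. Angptl2, a secreted protein linked to adipose inflammation and matrix remodelling, was at 2770.3 and 1490.5 in WT versus 5440.0 and 8267 in KO. The WT values were well apart, and so were the KO values, but the groups did not overlap. Its log2 fold change of 1.72 (SE 0.37, adjusted p = 0.0224) was 2.17 without WT replicate 1 (adjusted p = 0.0669), 1.28 without WT replicate 2 (adjusted p = 0.137) and 1.42 without KO replicate 2 (adjusted p = 0.0814).

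Genes that control lipoprotein lipase, the enzyme that ANGPTL4 inhibits, were also mostly higher. Of 14 tested, 9 rose and 5 were not called, and their median was 0.99. Gpihbp1, which carries the lipase across capillary endothelium, rose by 1.04 (SE 0.065, adjusted p = 0.0013), from 1790.2 and 1692 to 3520.2 and 3632, and passed in each fit without 1 library. Pcsk6, a proprotein convertase that can inactivate the lipase, rose by 2.19 (SE 0.22, adjusted p = 0.0031, or 0.0647 with a log2 fold change of 1.97 without WT replicate 2). Lmf2 rose by 0.46 (SE 0.068, adjusted p = 0.0084). The Lmf2 call was lost when WT replicate 1 (0.43) or WT replicate 2 (0.48) was left out. The enzyme itself, Lpl, which was picked for mention after its values were seen, was at 198119 and 117847 in WT versus 431375 and 553889 in KO. Its log2 fold change was 1.68 (SE 0.45, adjusted p = 0.0406), and its call was lost in each fit that left out 1 library (1.30 to 2.05). Leaving out WT replicate 1, WT replicate 2 or KO replicate 2 left 2, 1 and 5 of the list higher, and 6 remained in number without KO replicate 1.

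PPAR target genes, the class to which Angptl4 belongs, rose in 15 of 20 tested with a median of 1.73. Of these genes, Fabp4, Plin1, Plin4, Cidec, Lpl, Cd36 and Acsl1 are also among the mature adipocyte markers. The median given below for those markers thus rests in part on the same values. Aqp7, the glycerol channel of adipocytes, rose by 1.98 (SE 0.076, adjusted p = 0.00064), Plin2, a lipid droplet coat protein, by 1.94 (SE 0.16, adjusted p = 0.0021) and Pdk4, a brake on pyruvate oxidation, by 1.48 (SE 0.13, adjusted p = 0.0023). These 3 passed in each fit without 1 library. Slc27a1, a fatty acid transporter, rose by 1.36 (SE 0.14, adjusted p = 0.0034), and did not pass without WT replicate 1 (1.41) or WT replicate 2 (1.31). Leaving out WT replicate 1, WT replicate 2 or KO replicate 2 left 6, 3 and 10 of the list higher. Many of its genes are adipocyte transcripts, and the adipocyte markers rose in 14 of 20 with a median of 1.62 (6 and 2 of 20 without WT replicates 1 and 2).

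Apln, which encodes a peptide made by adipocytes and by endothelial tip cells, was at 336 and 141 normalized counts in WT versus 787 and 590.3 in KO. The WT libraries differed more than 2-fold from each other, but both lay below the KO libraries. The log2 fold change was 1.64 (SE 0.45, adjusted p = 0.0434). This call was lost in each fit that left out 1 library, with values from 1.02 to 2.26 and adjusted p up to 0.142, and with edgeR on the recovered reads (1.51, adjusted p = 0.0552). The values without WT replicate 2 and without WT replicate 1 were 1.02 and 2.26. Aplnr, its receptor, was at 1276 and 727 in WT versus 1543 and 2349 in KO, and the log2 fold change of 0.98 (SE 0.35, adjusted p = 0.0805) did not pass with limma. It passed with DESeq2 (adjusted p = 0.0135).

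Of the 9 receptors and co-receptors of these ligands, 5 rose and 4 were not called, and the median was 0.98. Kdr, the main VEGF-A receptor, went from 4258 and 3553 normalized counts to 8909 and 10247.7, Nrp1, the VEGF co-receptor neuropilin 1, from 6304.8 and 4980.4 to 12845 and 14382, and Tek, the angiopoietin receptor, from 1855 and 1581 to 3486 and 4044. Their log2 fold changes were 1.30 (SE 0.13), 1.28 (SE 0.14) and 1.13 (SE 0.12), with adjusted p-values of 0.0030, 0.0042 and 0.0037. Ptprb, the endothelial phosphatase that restrains TEK, rose by 0.98 (SE 0.15, adjusted p = 0.0092), and Flt1, which binds VEGF-A, VEGF-B and placental growth factor, by 0.96 (SE 0.16, adjusted p = 0.0115). Without WT replicate 2 these 5 log2 fold changes were 1.17, 1.11, 1.02, 0.84 and 0.84 in that order, and 0 of the 5 passed. Without WT replicate 1, 3 remained called, and Ptprb (1.12) and Flt1 (1.09) did not. The receptors of lymphatic vessels did not pass. Flt4 was at 1016 and 1071 against 656 and 988 (-0.37, SE 0.21, adjusted p = 0.214). Its log2 fold change was -0.08 without KO replicate 1 and -0.67 without KO replicate 2. Nrp2 was at 2384 and 2503 against 2213 and 2385 (-0.09, SE 0.072, adjusted p = 0.357). Tie1, a partner of TEK, had a log2 fold change of 0.55 (SE 0.17, adjusted p = 0.0611) and passed with DESeq2 (adjusted p = 0.0204). The endothelial markers rose in 14 of 20 with a median of 0.81 (9 and 4 without WT replicates 1 and 2), and 1 of them, Gpihbp1, also stands in the lipase list.

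**Figure D3:**
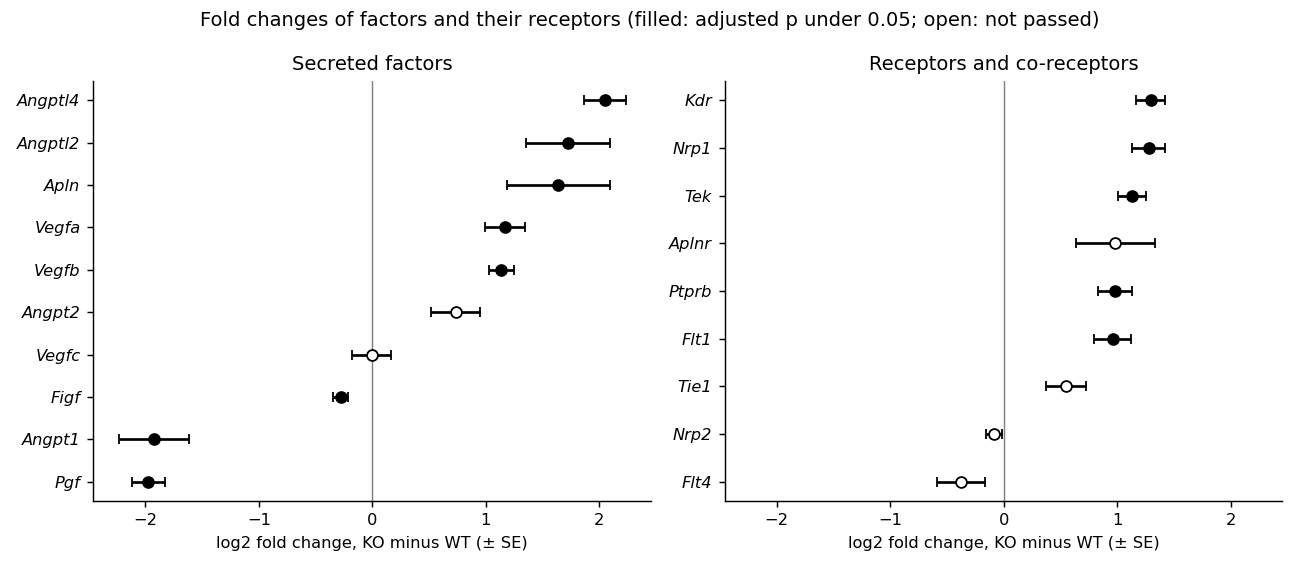
Log2 fold change, KO minus WT, with its SE (x axis) for the 10 factors (left) and their 9 receptors and co-receptors (right). Filled points passed an adjusted p of 0.05 and open points did not. Angptl4 is highest at 2.05 and Pgf and Angpt1 lowest at -1.98 and -1.93, while no receptor lies below -0.37.

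Lymphatic endothelial markers were set beside the lymphatic ligands Vegfc and Figf. Of 7 tested, 0 were called by limma and 0 by edgeR, 3 had an unadjusted p under 0.05 (1 higher and 2 lower), and DESeq2 called 1 higher and 1 lower. A fit with 1 KO library takes its within-group spread from WT alone, so calls from such fits are left out for this list. Prox1, the lymphatic identity factor, was at 185 and 183 in WT versus 24.4 and 89.3 in KO replicates 1 and 2, and Reln at 919 and 996 against 32.8 and 355. Their log2 fold changes were -1.95 (SE 0.64, adjusted p = 0.0676) and, for Reln, -3.13 (SE 1.16, adjusted p = 0.0891). Without KO replicate 1 they were -1.04 and -1.43 and without KO replicate 2 they were -2.87 and -4.83. The KO libraries thus differed widely on the size of both falls. Lyve1, which is also found on macrophages, was at 1624 and 1937 against 3079 and 2291 (0.58, SE 0.18, adjusted p = 0.0558). Its log2 fold change was 0.37 without KO replicate 1 and 0.80 without KO replicate 2. Macrophage markers rose in 13 of 16 with a median of 1.02 (9 and 7 higher without WT replicates 1 and 2), and took 0.104% and 0.103% of WT reads and 0.195% and 0.172% of KO reads. Their part in the Lyve1 and Angptl2 values was not tested.

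The level of each factor was ordered per kilobase of annotated exon, in normalized counts per kilobase. In WT Angptl4 was highest (1791 and 1632), followed by Vegfb (1188 and 977) and Vegfa (1167 and 959), whose ranges overlapped. Figf (475 and 490), Angpt1 (468 and 290) and Angptl2 (441 and 237) came next. The last pair overlapped, and the closest values of Figf and Angpt1 were nearly equal. Vegfc (166 and 171) and Pgf (152 and 139) followed without overlap, and Angpt2 (108 and 83.7) and Apln (107 and 44.9), the lowest, overlapped. In KO Angptl4 (8367 and 5973), Vegfa (2069 and 2726), Vegfb (2326 and 2420) and Angptl2 (865 and 1315) were the 4 highest, and again Vegfa and Vegfb did not differ beyond their spread. Figf (404 and 391) was followed by Apln (250 and 187), Vegfc (145 and 194) and Angpt2 (186 and 135), each of which overlapped its neighbour. Angpt1 (118 and 79.5) and Pgf (39.4 and 34.2) were last. Exon length counts the exons of every annotated isoform, so it understates the level of genes with long, rarely used exons.

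The differences of the factors were also expressed relative to marker lists, by subtracting each library's mean log2 level of the list. The mean of the mature adipocyte markers was higher in KO by 1.57 and that of the endothelial markers by 0.72. Relative to the adipocyte markers Angptl4 was at 0.48, Angptl2 at 0.15 and Apln at 0.07, and the KO and WT libraries of these 3 overlapped. The other 7 lay below WT in both KO libraries, with Vegfa at -0.41, Vegfb at -0.43, Pgf at -3.55 and Angpt1 at -3.50. Relative to the endothelial markers Angptl4 (1.33), Angptl2 (1.01), Apln (0.92), Vegfa (0.45) and Vegfb (0.42) stayed above WT in both KO libraries, Angpt2 overlapped (0.02), and Vegfc (-0.72), Figf (-1.0), Angpt1 (-2.64) and Pgf (-2.69) lay below. The direction for Vegfa and Vegfb thus depended on which list served as the base, while Angptl4 was higher in its mean on each. Both lists rose in KO, so Pgf and Angpt1, which fell as measured, could only lie lower on these bases. The pericyte and smooth muscle list, with a median log2 fold change of -3.33, was not used as a base.

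**Figure D4:**
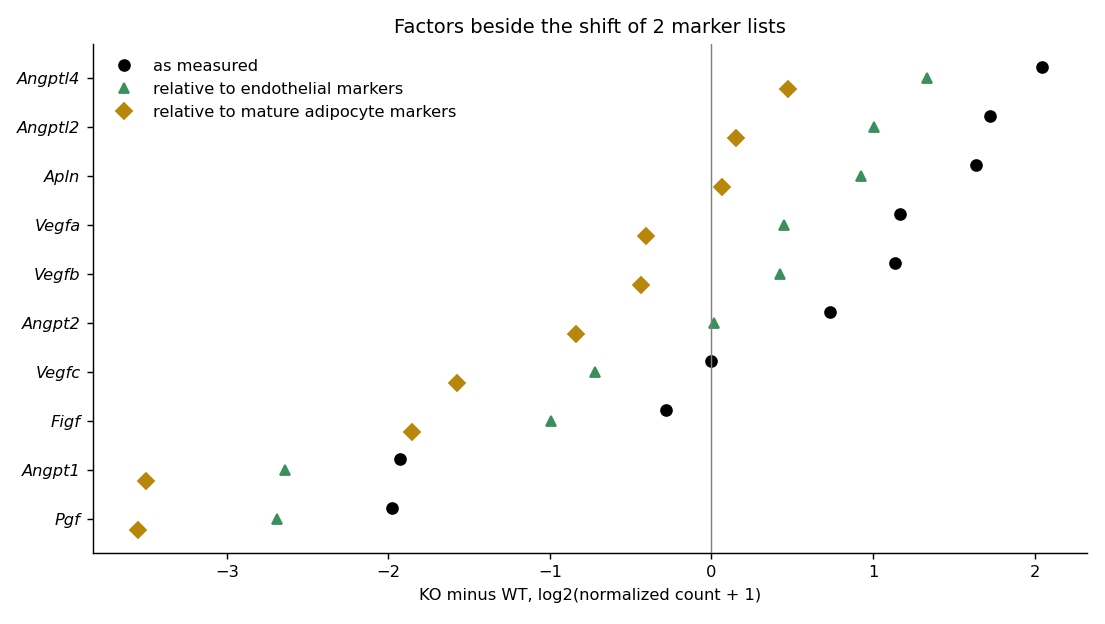
KO minus WT on log2(normalized count + 1) (x axis) for the 10 factors as measured (circles), relative to 20 endothelial markers (triangles) and relative to 20 mature adipocyte markers (diamonds). Pgf and Angpt1 are left of 0 on all 3 bases and Angptl4 right of 0 on all 3, while Vegfa and Vegfb change sides on the adipocyte base. Both marker lists rose in KO, which by itself moves every factor to the left of its measured value.

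Vegfa and Angptl4 are both induced by hypoxia, so the hypoxia genes are given beside them. Hypoxia target genes did not move one way: 8 of the 23 tested rose, 5 fell and 10 were not called, and the median was 0.33. Lox, a collagen crosslinking enzyme, rose by 1.19 (SE 0.16, adjusted p = 0.0065) and Ndrg1 by 0.79 (SE 0.11, adjusted p = 0.0076). Slc2a1, the glucose transporter GLUT1, fell by 0.72 (SE 0.094, adjusted p = 0.0061), from 792 and 821 to 463 and 516, and Mxi1 fell by 0.72 (SE 0.12, adjusted p = 0.0119). None of these 4 calls held without WT replicate 1 or without WT replicate 2, where the log2 fold changes were 1.26 and 1.11 for Lox, 0.74 and 0.84 for Ndrg1, -0.75 and -0.70 for Slc2a1, and -0.86 and -0.59 for Mxi1. Leaving out WT replicate 1 gave 1 higher and 2 lower, WT replicate 2 gave 1 and 0, KO replicate 1 gave 7 and 2, and KO replicate 2 gave 4 and 3.

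Of 10 genes for HIF subunits and their sensors, 4 rose and 4 fell. Hif1a and Epas1, the oxygen-regulated subunits, which were picked for mention after their values were seen, rose by 0.66 (SE 0.11, adjusted p = 0.0116) and, for Epas1, 0.86 (SE 0.13, adjusted p = 0.0091). Arnt2 fell by 5.14 (SE 0.22, adjusted p = 0.0007), from 868 and 624 to 19.7 and 20.1, and Hif3a fell by 2.30 (SE 0.17, adjusted p = 0.0018). Egln3, a prolyl hydroxylase that is itself induced by hypoxia, fell by 2.88 (SE 0.27, adjusted p = 0.0028), and Hif1an fell by 0.44 (SE 0.061, adjusted p = 0.0072). The Arnt2 call held in each fit without 1 library. Hif1a (0.68 and 0.63), Epas1 (0.92 and 0.80), Hif3a (-2.35 and -2.24) and Hif1an (-0.47 and -0.41) did not pass without WT replicate 1 or without WT replicate 2, and Egln3 (-2.64) did not pass without the latter. Leaving out WT replicate 1 gave 1 and 2 higher and lower, and WT replicate 2 gave 0 and 1. These falls were measured beside a median of -8.16 over the male tract markers, whose part in them was not tested.

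Among factors that process the ligands, 5 of 12 rose and 4 fell. Ccbe1, needed with ADAMTS3 to activate VEGF-C, was at 873 and 883 in WT versus 395 and 375 in KO, a log2 fold change of -1.19 (SE 0.083, adjusted p = 0.0016). Adamts3, the protease, which was picked for mention after its values were seen, was at 107 and 123 against 47.8 and 34.6 (-1.47, SE 0.25, adjusted p = 0.0126). Pcsk5, a convertase that can cleave VEGF-C and VEGF-D, rose by 0.71 (SE 0.073, adjusted p = 0.0034), and Adamts2 by 0.97 (SE 0.10, adjusted p = 0.0036). The calls were lost without WT replicate 2 for Ccbe1 (-1.18, adjusted p = 0.0512), Pcsk5 (0.68, adjusted p = 0.0581) and Adamts3 (-1.37), and for Adamts3 also without WT replicate 1 (-1.57). Leaving out WT replicate 1 gave 3 and 1 higher and lower, and WT replicate 2 gave 1 and 0.

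Other ligands of these families rose in 5 and fell in 2 of 10 tested. Pdgfb, the endothelial signal that recruits mural cells, rose by 1.30 (SE 0.15, adjusted p = 0.0047) and Pdgfc by 0.57 (SE 0.080, adjusted p = 0.0073). Angpt4, another angiopoietin, fell by 4.69 (SE 0.35, adjusted p = 0.0017), from 468 and 456 to 12.2 and 23.4. The calls on these 3 were lost without WT replicate 1 (1.42, 0.59 and -4.67 in that order) and without WT replicate 2 (1.18, 0.55 and -4.71). Gm6484, the symbol in the table for Angptl8, an insulin-induced factor of lipase control, was picked for mention after its values were seen. It was at 125 and 31.6 in WT versus 280.2 and 605 in KO (2.68, SE 0.77, adjusted p = 0.0481), and its call was lost in each fit that left out 1 library (1.71 to 3.66) and with edgeR (adjusted p = 0.0583). The list had 0 genes higher and 0 lower without WT replicate 1 and likewise without WT replicate 2, and 3 higher without KO replicate 2.

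Tip cell and sprouting genes rose in 8 of 15, fell in 2 and did not pass in 5, with a median of 0.63 (0.35 without WT replicate 2). Jag1, a Notch ligand, rose by 0.77 (SE 0.074, adjusted p = 0.0029), and Pdgfb belongs to this list too. Ramp3, a co-receptor for adrenomedullin, was at 1715 and 999 in WT versus 5.62 and 5.58 in KO (-7.63, SE 0.31, adjusted p = 0.00068), and Hes1, a Notch target, fell by 2.29 (SE 0.18, adjusted p = 0.0019). The Ramp3 call held in each fit without 1 library. The calls on Jag1 (0.78 and 0.77) and Pdgfb (1.42 and 1.18) were lost when either WT replicate 1 or WT replicate 2 was left out, and that on Hes1 (-2.14) only in the latter fit. In the list, leaving out WT replicate 1 gave 4 higher and 2 lower, WT replicate 2 gave 0 and 1, and KO replicate 2 gave 6 and 3. The list holds genes of Notch signalling that many cell types express. The fall of Ramp3 was measured beside that of the male tract markers, whose part in it was not tested.

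The list of angiogenesis inhibitors had 6 of 13 genes higher and 1, Vash2, lower, with a median of 0.59. Thbs1, which encodes thrombospondin 1, was at 1449 and 2958 in WT versus 36186 and 21359 in KO, a log2 fold change of 3.75 (SE 0.44, adjusted p = 0.0046) that exceeds that of any of the 10 factors. Cxcl9, an interferon-induced chemokine, rose by 1.8 (SE 0.16, adjusted p = 0.0026), and Serpinf1, which encodes pigment epithelium-derived factor, by 1.05 (SE 0.13, adjusted p = 0.0050). Vash2, a vasohibin reported to promote rather than restrain vessel growth, fell by 5.87 (SE 0.23, adjusted p = 0.00065), from 1331 and 1175 to 16.9 and 24.5. The calls on Vash2 and Cxcl9 held in each fit without 1 library, and those on Thbs1 (3.23 and 4.26) and Serpinf1 (1.02 and 1.08) were lost without WT replicate 1 and without WT replicate 2. In each of those 2 fits the list had 1 gene higher and 1 lower, and 4 were higher without KO replicate 2.

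**Figure D5:**
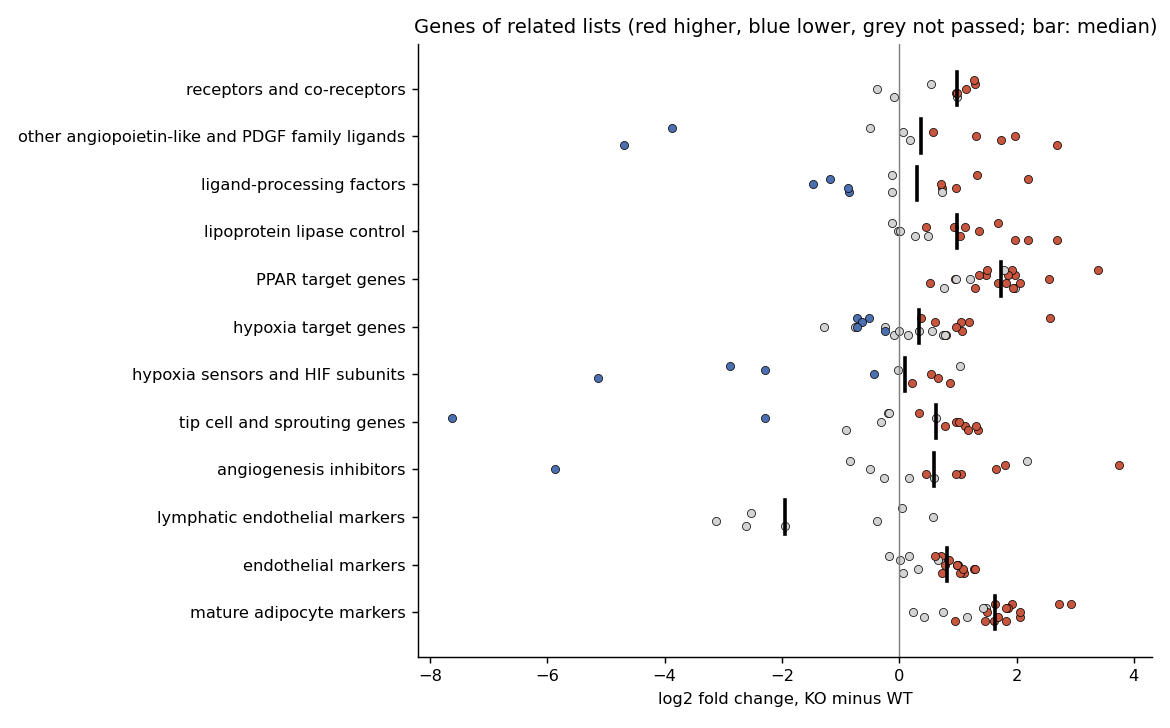
Log2 fold change, KO minus WT (x axis), of every tested gene in 12 gene lists related to the factors. Red points were called higher, blue lower and grey did not pass, and black bars are medians. The PPAR target and adipocyte lists, which share genes, have the highest medians, at 1.73 and 1.62. Hypoxia targets straddle 0 with a median of 0.33, and the lymphatic list has the lowest, at -1.95.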

How the data were processed

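RNA of 4 libraries (2 WT, 2 KO) was sequenced from TruSeq single-read libraries, per the labels' protocols. The submitters' processing notes name CASAVA 1.8, TopHat2 2.0.10, HTSeq 0.5.3, DESeq2 1.4.5 and GRCm38. The strand setting of the counting is not stated there. Per gene, the authors deposited a signal, the read count over a size factor (normalized count). A second deposited table holds log2 fold change, p-value and test score. Dividing by the value of 1 read gave whole reads for 100% of values (tolerance 0.01). Samples were grouped by title. Replicates differed beyond sampling noise (chi-square per degree of freedom 49 in WT and 34.7 in KO).

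Genes whose mean reached 10 entered a fit on log2(normalized count + 1), which understates the change of low genes (limma 3.58.1, R 4.3.3), with an intensity trend and Benjamini-Hochberg adjustment at 0.05. Steps were tested on simulated data. The factors and lists were chosen with earlier results of these data known. Named genes were Nck2, the factors, all receptors and up to 4 genes of each other list by smallest p, and 5 others picked afterwards are marked in the text. The values of 1 gene that the rule names are not reported here. Positions and exon lengths came from GENCODE M21 (GRCm38), promoters from RefSeq (GRCm38.p6). Results were recomputed with other pseudocounts (0.5, 5), without the filter, with a minimum of 50, with upper-quartile and TMM scaling, edgeR 4.0.16, DESeq2 1.42.0, robust moderation, a replicate block and each library left out. In the last, the lone library is assumed to vary like the other group.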

Additional observations from a re-analysis of the deposited data

How the results depend on the processing

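With no filter on low values, 1320 genes of the whole table were higher and 2071 lower, and of the 10 factors 0 were higher and 1 was lower, with 0 of the receptors higher. The fold changes are the same in that fit, and the cause was not tested. The count of all genes higher ran from 524 to 2846 over the fits without 1 library and of all genes lower from 1061 to 3434. Over the same fits 1 to 4 factors were higher and 0 to 2 lower, and 0 to 5 receptors were higher and 0 to 1 lower. Pseudocounts, a mean of 50, both scalings and robust moderation left the 5 and 3 calls among the factors in number. Factors called higher and lower were 4 and 3 with edgeR, which called 21% of all genes higher and 24.4% lower, and 6 and 2 with DESeq2, which called 18.9% and 21.4%. Vegfc, which passed nowhere, had a log2 fold change of the other sign with upper-quartile scaling (0.0103) and DESeq2 (0.0073), and ran from -0.22 to 0.20 without 1 library, above 0 without WT replicate 2 (0.012) and KO replicate 1 (0.20). Each factor other than Vegfc kept its direction in all 14 alternatives. Leaving out 1 library could not have changed it, as the WT and KO libraries of these factors did not overlap. Same-numbered libraries did not deviate together (correlation -0.01 over 16710 genes). With 2 libraries for each genotype this cannot decide whether the numbers pair libraries. With the replicate block Angpt2 passed (adjusted p = 0.0216), Figf did not (0.0842), and the other calls among the factors held. Hypoxia targets higher went from 8 to 4 in that fit.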
